A study of Rattus norvegicus with 12 samples.

Results

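The glycosyltransferases of mucin and surface glycans were taken as the genes whose symbol begins with Galnt, B3gnt, B4galt, B3galt, Gcnt, Fut, St3gal, St6gal or St8sia followed by a letter or number, read from probe sets that the platform annotation assigns to a single symbol. Where a gene had several such probe sets, the one with the highest mean was kept. This rule gave 64 of the 14506 genes measured: 16 Galnt, 8 B3gnt, 7 B4galt, 5 B3galt, 2 Gcnt, 8 Fut, 6 St3gal, 2 St6gal, 4 St6galnac and 6 St8sia genes. The rule uses gene names and the mean over all 12 arrays, and it was written with earlier results of these data known.

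The uteri came from ovariectomized young adult female Lewis rats, which lack the ovarian source of estrogen in every group. The E2+3-MC rats received 17β-estradiol (E2) at 4 µg/kg per day together with 3-methylcholanthrene (3-MC), a polycyclic hydrocarbon that activates the aryl hydrocarbon receptor (AhR), at 15 mg/kg per day. The E2 rats received E2 alone, the 3-MC rats received 3-MC alone and the vehicle rats received dimethyl sulfoxide. Dosing lasted 3 days, tissue was taken 24 h after the last dose, and each group held 3 rats with an Affymetrix array each.

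Mucins and other surface glycoproteins carry sugar chains that are built stepwise in the Golgi apparatus. The Galnt enzymes start O-linked chains by attaching N-acetylgalactosamine to serine or threonine, the B3gnt, B4galt, B3galt and Gcnt enzymes lengthen and branch the chains, and the Fut enzymes and sialyltransferases cap them with fucose or sialic acid. In the uterus these chains form part of the glycocalyx on the luminal epithelium, and the capped structures are known to vary with ovarian steroids in rodents.

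The labels were checked through estrogen-responsive genes of the uterus: complement C3, S100g (calbindin-D9k) and Pgr (the progesterone receptor) were higher and Clu (clusterin) was lower with E2. The mean difference with E2 was 5.99 ± 0.18 for C3, 4.51 ± 0.16 for S100g, 0.70 ± 0.15 for Pgr and -3.06 ± 0.16 for Clu (log2, SE, 6 rats against 6). The AhR target genes Cyp1a1, Cyp1b1 and Ahrr lay among the dimmest 30% of genes, so these arrays gave no check of the 3-MC treatment through them. The 3-MC and vehicle rats overlapped for each, at 20.2 to 32.2 and 15.3 to 29.8 for Cyp1a1. Ahrr measured 43.6 to 51.2 in the E2+3-MC rats and 23.2 to 31.8 in the E2 rats. Between those groups 20.9% of all genes lay above without overlap. Median probe-set intensity ran over a range of 86.3 to 124 across the arrays. The spread of values was widest in vehicle rat 1, whose interquartile range on log2(intensity + 16) was 2.70, against 1.87 to 2.35 in the other 11 arrays. That rat was the highest of the 3 vehicle rats for 36 of 45 tested glycosyltransferases (80%) and for 81% of all tested genes. Some of the results that lean on it are therefore also given without it.

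A small number of these enzymes rose strongly with E2. The O-glycan starter Galnt3, the chain-extending enzyme B3gnt3 and the fucosyltransferase Fut9 rose furthest. More moderate rises were seen for Galnt11, B4galt1, St6gal1 and Fut2, and the O-glycan sialyltransferase St6galnac2 and the branching enzyme Gcnt2 fell. In the fit to all 4 groups, no glycosyltransferase passed the test in any comparison of 3-MC.

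The main measure was the E2 main effect, the mean of the E2 minus vehicle and E2+3-MC minus 3-MC differences, which sets 6 rats given E2 against 6 rats not given it. Differences are on the log2(intensity + 16) scale, which understates the change of dim genes, and folds are ratios of intensity + 16. The differences were tested with limma with Benjamini-Hochberg adjustment over the 10154 genes left after the dimmest 30% were removed. The threshold for a call was an adjusted p of 0.05. Of the 64 glycosyltransferases, 45 were tested and 19 were too dim. Of the 45 tested, 15 were called higher (33.3%), against 15% of all tested genes, and 7 were called lower (15.6%), against 10.6% of all tested genes. The median difference was 0.11 for the 45 glycosyltransferases and -0.02 for all tested genes, and the median size of the difference without its sign was 0.39 for the glycosyltransferases and 0.24 for all tested genes. For B3gnt3, B3gnt7, Fut2, Fut4, Galnt3 and Galnt4 the mean without E2 lay under the limit for dim genes. They entered the test through the rats given E2, so the share of higher calls among those tested leans upward. Members that entered through the rats not given E2 were not counted, so the share of lower calls may lean upward too. With no gene left out as dim, 15 of all 64 were called higher, against 11.2% of all 14506 genes, and 10 were called lower, against 9.6%. After quantile normalization, 18 of 45 were called higher, against 23.2% of all tested genes, and 10 were called lower, against 24.9%.

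The same comparison can be made without a model, by asking in how many genes the 2 sets of rats did not overlap. In 7 of the 64 (Galnt3, B3gnt3, Fut9, Galntl5, Galnt11, Fut2 and St3gal4) every rat given E2 lay above every rat not given it, against 4.52% of all genes. In 4 of the 64 (St6galnac2, St3gal3, St8sia2 and St3gal6) every rat given E2 lay below, against 4.86% of all genes.

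**Figure D1:**
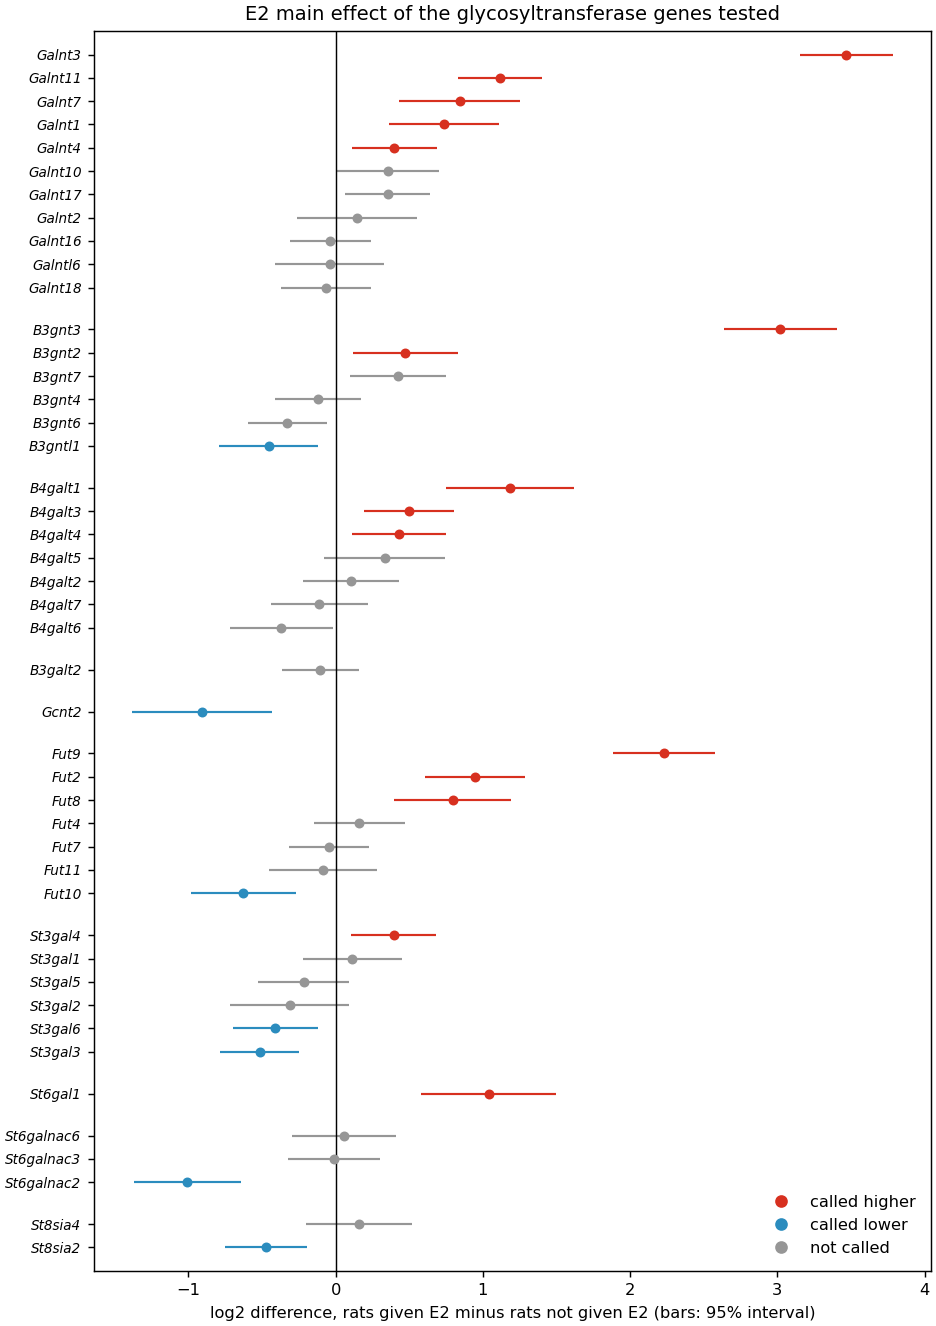
E2 main effect of the 45 glycosyltransferases tested, grouped by family. Points are log2 differences between the 6 rats given E2 and the 6 not given it, bars are 95% intervals, red marks genes called higher, blue genes called lower and grey genes not called; Galnt3, B3gnt3 and Fut9 stand beyond 2 log2 units, and the 7 genes called lower lie between -0.41 and -1.01.

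Galnt3, which starts O-linked chains and is known for glycosylating the phosphate-regulating hormone FGF23, was the most strongly raised member. Its intensity was 439, 315 and 582 in the E2+3-MC rats and 665, 497 and 563 in the E2 rats, against 32.5, 26.7 and 31 in the 3-MC rats and 32, 31.5 and 28.8 in the vehicle rats. The 6 rats given E2 were all far above the other 6, and the 6 rats without E2 differed little from each other. The E2 main effect was 3.47 ± 0.15 (log2, SE), with an adjusted p of 1.8e-11 in limma. Its size depends on the offset, since the level without E2 lay under the limit for dim genes: it was 2.58 with an offset of 64 and 3.99 with an offset of 1.

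B3gnt3, which adds N-acetylglucosamine to galactose and so extends O-linked chains, had the second largest rise. It measured 309, 172 and 328 in the E2+3-MC rats and 453, 441 and 514 in the E2 rats, against 44.2, 29.4 and 22.1 in the 3-MC rats and 17.5, 42.6 and 24.8 in the vehicle rats. Groups with and without E2 were widely separated, and the 3 E2+3-MC rats all lay below the 3 E2 rats. The E2 main effect was 3.02 ± 0.18 (log2, SE), with an adjusted p of 1.7e-09 in limma, and here too the size followed the offset, at 2.15 with an offset of 64 and 3.57 with an offset of 1.

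Fut9, which makes the Lewis x structure by adding fucose to N-acetylglucosamine, had the next largest rise. Its intensity was 361, 475 and 499 in the E2+3-MC rats and 497, 307 and 396 in the E2 rats, against 80.9, 84.7 and 104 in the 3-MC rats and 91, 64.2 and 44.6 in the vehicle rats. The rats given E2 were all above the others, and the E2+3-MC and E2 rats overlapped. The E2 main effect was 2.23 ± 0.17 (log2, SE), or 4.69-fold, with an adjusted p of 2.5e-08 in limma.

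Because these 3 genes rose together, the 250 bases upstream of their RefSeq start sites are shown, read on the gene's strand from 5′ to 3′. The capitals mark GGTCA, a single arm of the estrogen response element, and GCGTG, the core motif bound by the AhR, each searched on both strands.
Galnt3, GRCr8 chr3:71174324-71174573, minus strand: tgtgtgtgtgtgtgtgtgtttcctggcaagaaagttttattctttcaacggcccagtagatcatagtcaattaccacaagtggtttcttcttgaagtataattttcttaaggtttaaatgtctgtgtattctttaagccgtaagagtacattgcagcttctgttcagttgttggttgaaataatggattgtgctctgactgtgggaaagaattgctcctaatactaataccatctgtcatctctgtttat
B3gnt3, GRCr8 chr16:18444739-18444988, minus strand: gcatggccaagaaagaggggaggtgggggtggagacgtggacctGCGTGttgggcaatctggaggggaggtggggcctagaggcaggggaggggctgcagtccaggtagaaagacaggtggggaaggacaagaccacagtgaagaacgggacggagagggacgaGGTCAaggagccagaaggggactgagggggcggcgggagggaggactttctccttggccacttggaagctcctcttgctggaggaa
Fut9, GRCr8 chr5:44361210-44361459, minus strand: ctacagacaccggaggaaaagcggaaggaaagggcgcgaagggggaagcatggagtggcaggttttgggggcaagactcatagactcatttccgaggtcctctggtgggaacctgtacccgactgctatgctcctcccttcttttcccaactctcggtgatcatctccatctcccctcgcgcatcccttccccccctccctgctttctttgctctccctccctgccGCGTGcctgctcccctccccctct
The Galnt3 window held neither motif, the B3gnt3 window held both once, and the Fut9 window held GCGTG once. Over the 33465 upstream windows of the rat table, 35.4% held GGTCA and 25.9% held GCGTG, against 18 of the 59 windows of glycosyltransferases (30.5%) for GGTCA and also 18 of 59 (30.5%) for GCGTG. The palindrome GGTCANNNTGACC, which contains GGTCA, was in 0.0239% of all windows and in 0 of the 59. The windows cover 53 of the 64 genes, some with several start sites, and St6galnac2 was not among them.

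**Figure D2:**
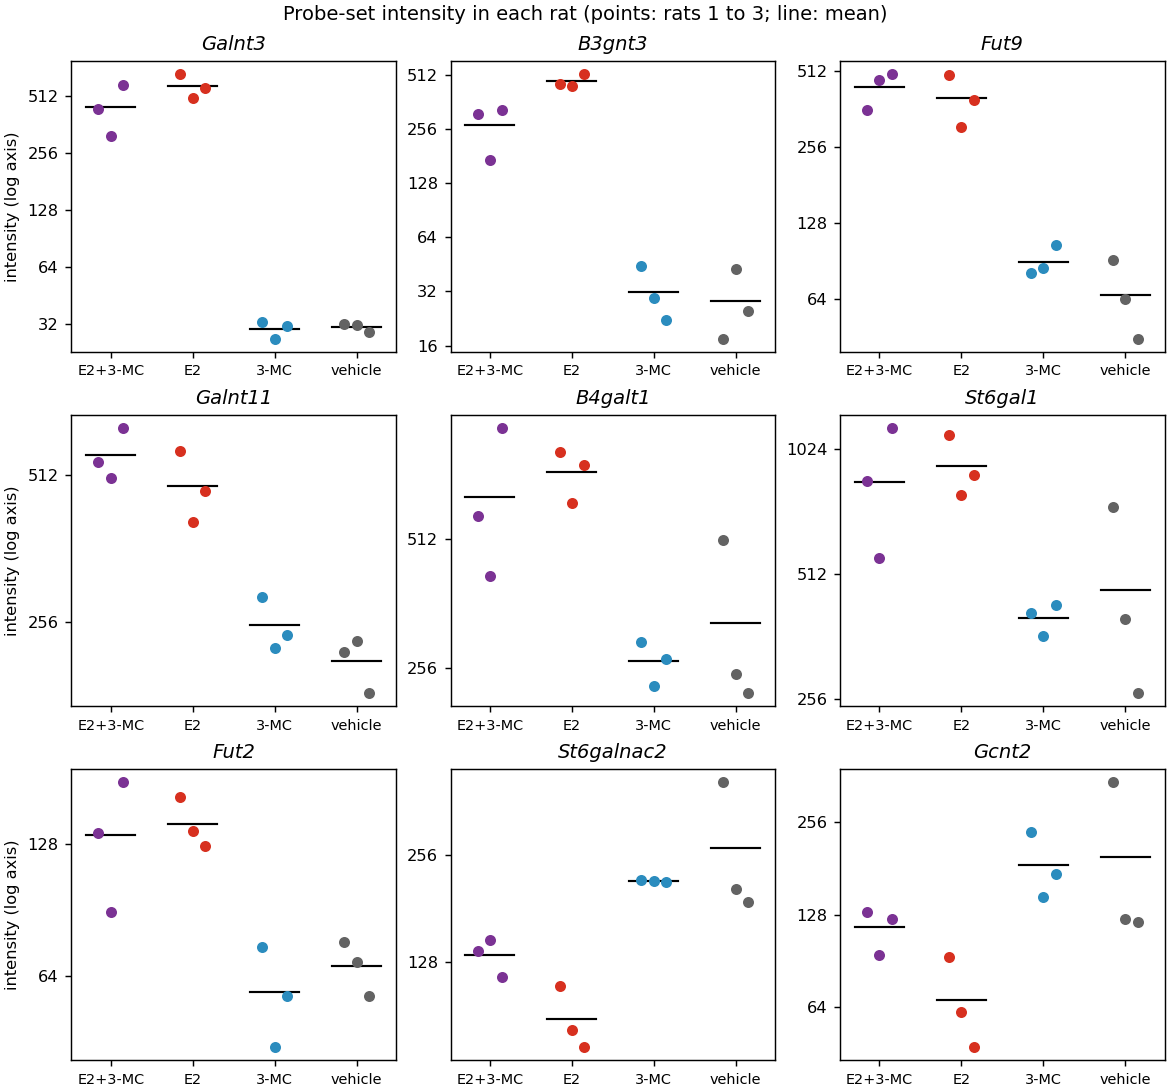
Intensity of 9 glycosyltransferases in each of the 12 rats, on log axes that differ between panels. Points are single rats, lines are group means, and groups run from E2+3-MC and E2 to 3-MC and vehicle. Galnt3, B3gnt3 and Fut9 separate the rats by E2 without overlap. Vehicle rat 1 lies above the other vehicle rats in every panel except B3gnt3 and Galnt11, most clearly for B4galt1, St6gal1, St6galnac2 and Gcnt2.

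Among the enzymes that start O-linked chains, 11 of 16 Galnt genes were tested, of which 5 rose and none was called lower. The shares over all tested genes, 15% called higher and 10.6% called lower, apply to this family and to those below. Galnt3 and Galnt4 among the 5, and B3gnt3 and Fut2 in the families below, entered the test through the rats given E2. After Galnt3 the largest rise among the tested Galnt genes was that of Galnt11, known in frog embryos for acting on Notch. Galnt11 measured 545, 505 and 636 in the E2+3-MC rats and 573, 410.2 and 475 in the E2 rats, against 289, 226 and 241 in the 3-MC rats and 222, 234 and 184 in the vehicle rats. The groups with and without E2 did not overlap, and the rise was 1.12 ± 0.14 (log2, SE), or 2.17-fold, with an adjusted p of 1e-05.

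Galnt7, which prefers peptides that already carry N-acetylgalactosamine, rose by 0.84 ± 0.19, with intensities of 339 to 594 in the 6 rats given E2 and 158 to 411 in the 6 not given it. Galnt1, a widely expressed starter enzyme, rose by 0.74 ± 0.18, with intensities of 371 to 686 with E2 and 238 to 404 without it. For both genes only vehicle rat 1, at 411 for Galnt7 and 404 for Galnt1, overlapped the range of the rats given E2. Galnt4 was called higher at 0.40 ± 0.14 with an adjusted p of 0.041, a call lost in 10 of 20 alternative settings. The 6 Galnt genes tested and not called had differences between -0.07 (Galnt18) and 0.36 (Galnt10). Galntl6 was read by 6 probe sets, whose E2 differences ran from -0.45 to 0.07, and the brightest of them gave -0.04.

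Galntl5, a testis-enriched relative of the starter enzymes in mouse and human, was left out of the test as dim. It nevertheless measured 96.7, 83.5 and 77.1 in the E2+3-MC rats and 86.5, 61.3 and 52 in the E2 rats, against 18.2, 18.5 and 33.6 in the 3-MC rats and 16.9, 24.7 and 16.5 in the vehicle rats. Every rat given E2 was above every rat not given it. With no gene left out as dim, limma gave a rise of 1.30 (log2) and an adjusted p of 8e-06. In the RefSeq gene order of GRCr8, Galntl5 is the protein-coding neighbour of Galnt11, so a pair of adjacent family members were both higher with E2. The other adjacent pair, St6galnac2 and St6galnac1, moved unlike each other, with differences of -1.01 and -0.11, and Galntl6 and Galnt7, which have 1 gene between them, differed by -0.04 and 0.84.

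Among the chain-extending B3gnt genes, 6 of 8 were tested, of which 2 rose and 1 fell. B3gnt2, the main enzyme of polylactosamine synthesis, rose by 0.47 ± 0.17 with an adjusted p of 0.048, and B3gntl1 fell by 0.45 (SE 0.16) with an adjusted p of 0.044. These calls were lost in 14 of 21 alternative settings for B3gnt2 and in 12 of 20 for B3gntl1. The keratan sulfate enzyme B3gnt7 had a difference of 0.42 and an adjusted p of 0.054, and B3gnt4 had one of -0.12. B3gnt6, which makes a mucin core structure in the gut, had an E2 main effect of -0.33 with an adjusted p of 0.068, while it was called lower in E2 minus vehicle at -0.54 ± 0.18 with an adjusted p of 0.045, a call lost in 13 of 21 alternative settings.

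All 7 galactosyltransferases of the B4galt family were tested and 3 were called higher. B4galt1, which adds galactose to N-acetylglucosamine and makes lactose in the mammary gland, measured 579, 419 and 927 in the E2+3-MC rats and 818, 620.0 and 760.5 in the E2 rats, against 294, 232 and 269 in the 3-MC rats and 508, 247 and 224 in the vehicle rats. Vehicle rat 1, at 508, was the only rat without E2 that overlapped the rats given it, of which E2+3-MC rat 2 was the lowest. The rise was 1.19 ± 0.21 (log2, SE), or 2.27-fold, with an adjusted p of 0.00041, and it was 1.36 without vehicle rat 1.

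B4galt3 rose by 0.50 ± 0.14 and B4galt4, which acts on sulfated chains, by 0.43 ± 0.15, with adjusted p values of 0.018 and 0.045. The B4galt4 call was lost in 10 of 21 alternative settings and the B4galt3 call in 2 of 21. The lactosylceramide synthases B4galt5 and B4galt6 had differences of 0.33 and -0.37 and were not called. B4galt7, which builds the linker that joins glycosaminoglycans to protein, had a difference of -0.11, and B4galt2 had one of 0.10. Of the 5 B3galt genes only B3galt2 was tested, with a difference of -0.10.

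Gcnt2, which forms the branched I antigen from linear polylactosamine, was the branching enzyme that could be tested. It measured 131, 94.6 and 124 in the E2+3-MC rats and 93, 61.8 and 47.5 in the E2 rats, against 237, 145 and 174 in the 3-MC rats and 345, 124 and 121 in the vehicle rats. The E2 rats were below all rats not given E2, whereas the E2+3-MC rats overlapped vehicle rats 2 and 3. Gcnt2 fell by 0.91 (log2, SE 0.22) with an adjusted p of 0.0063. In E2 minus vehicle the difference was -1.23, and -0.77 without vehicle rat 1, with adjusted p values of 0.012 and 0.0085. Gcnt3, the mucin-type branching enzyme of gut epithelium, was left out as dim, with intensities of 14.4 to 34.6 with E2 and 26.4 to 33.5 without it.

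Of the 8 fucosyltransferases, 7 were tested, of which 3 rose and 1 fell. Fut2, the secretor enzyme that makes the H antigen on epithelia, measured 136, 89.7 and 176 in the E2+3-MC rats and 163, 137 and 126 in the E2 rats, against 74.6, 44.2 and 57.7 in the 3-MC rats and 76.4, 68.7 and 57.8 in the vehicle rats. The groups with and without E2 did not overlap. The rise was 0.95 ± 0.16 (log2, SE), or 1.93-fold, with an adjusted p of 0.00031.

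Fut8, which places the core fucose of N-linked chains, rose by 0.80 ± 0.19, with intensities of 324 to 496 in the rats given E2 and 167 to 405 in the rats without it, the highest of these being vehicle rat 1. Fut10 fell by 0.63 (SE 0.17) with an adjusted p of 0.011. The Lewis x and sialyl Lewis x enzymes of leukocytes, Fut4 and Fut7, had differences of 0.16 and -0.05, and Fut11 had one of -0.09. Fut1, the other H antigen enzyme, was left out as dim, with intensities of 24.6 to 38.5 with E2 and 28.5 to 39.2 without it.

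The sialyltransferases split by enzyme. St6gal1, which caps N-linked chains with sialic acid, rose, measuring 857, 558 and 1147 in the E2+3-MC rats and 1107, 793 and 886 in the E2 rats, against 411, 363 and 431 in the 3-MC rats and 741, 398 and 265 in the vehicle rats. Vehicle rat 1, at 741, was above E2+3-MC rat 2 and below the other rats given E2. The rise was 1.04 ± 0.22 (log2, SE), or 2.05-fold, with an adjusted p of 0.0018, and it was 1.23 without vehicle rat 1.

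St6galnac2, which adds sialic acid to the N-acetylgalactosamine of O-linked chains, moved the other way. It measured 138, 148 and 116 in the E2+3-MC rats and 109.7, 82.2 and 73.7 in the E2 rats, against 218, 216 and 215 in the 3-MC rats and 410.5, 205 and 189 in the vehicle rats. Every rat given E2 was below every rat not given it, and the 3 3-MC rats were nearly equal. The fall was -1.01 ± 0.17 (log2, SE), so that the level without E2 was 2.01-fold that with E2, and the adjusted p was 0.00034. St6galnac1, which makes sialyl-Tn on mucins, was left out as dim with intensities of 38.1 to 58.7 with E2 and 31.3 to 64.3 without it, and St6galnac3 and St6galnac6 had differences of -0.01 and 0.06.

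All 6 St3gal genes were tested, of which 1 rose and 2 fell. St3gal3 fell by 0.51 (SE 0.13), with intensities of 51.1 to 78 in the rats given E2 and 81.2 to 126 in the rats without it. St3gal6 fell by 0.41 (SE 0.14) with an adjusted p of 0.035, whereas St3gal4, which like them caps galactose with sialic acid, rose by 0.39 ± 0.14 with an adjusted p of 0.043. These 3 genes separated the rats by E2 without overlap, in opposite directions, and the call was lost in 8 of 21 alternative settings for St3gal6 and in 10 of 20 for St3gal4. The O-glycan enzymes St3gal1 and St3gal2 and the GM3 ganglioside synthase St3gal5 had differences of 0.11, -0.31 and -0.22 and were not called.

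Of the 6 St8sia genes, which add sialic acid to sialic acid, 2 were tested. St8sia2, a polysialic acid synthase of neural tissue, fell by 0.47 (SE 0.13), with intensities of 63.9 to 85.9 in the rats given E2 and 93.8 to 125 in the rats without it, and an adjusted p of 0.013. The other polysialic acid synthase, St8sia4, had a difference of 0.16 and was not called.

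The 19 members left out as dim were Galntl5, Galnt5, Galnt9, Galnt13, Galnt14, B3gnt5, B3gnt8, B3galt1, B3galt4, B3galt5, B3galt6, Gcnt3, Fut1, St6gal2, St6galnac1, St8sia1, St8sia3, St8sia5 and St8sia6. With no gene left out, limma called 4 of them with E2: Galntl5 higher, and B3gnt8, Galnt13 and St8sia6 lower, with differences of -0.35, -0.38 and -0.49. B3gnt2 lost its call in that fit, with an adjusted p of 0.051.

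The E2 response was measured in 2 sets of rats that shared no animal, those with 3-MC and those without it. In E2 minus vehicle, 9 of 45 were called higher, against 8.7% of all tested genes, and 4 were called lower, against 9.44%. In E2+3-MC minus 3-MC, 6 of 45 were called higher, against 6.82% of all tested genes, and 0 lower, against 1.39%. Galnt3, B3gnt3, Fut9, Galnt11, B4galt1 and Fut2 were called higher in both, 6 of 45 against 7.29% of all tested genes called in the same direction in both. Of these, Galnt3, B3gnt3 and Fut2 entered the test through the rats given E2, so the shares of higher calls lean upward here too. All 13 called in E2 minus vehicle had the same sign in E2+3-MC minus 3-MC, as did 97.8% of all genes so called. Over all 45 the sign was shared by 37 (82.2%), against 75.6% of all tested genes.

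The 4 genes called lower in E2 minus vehicle were St6galnac2, Gcnt2, Fut10 and B3gnt6, with differences of -1.37, -1.23, -0.92 and -0.54. The same genes had -0.64, -0.59, -0.33 and -0.12 in E2+3-MC minus 3-MC and none was called. The difference between these differences is the interaction term, which was not called for any of them.

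These counts rested heavily on single arrays and on scale. Without vehicle rat 1, the calls in E2 minus vehicle were 18 higher and 6 lower, against 2412 and 1126 of all 10154 tested genes. Without E2 rat 3 they were 6 higher and 2 lower of 44, against 572 and 412 of all tested genes. After quantile normalization they were 17 higher and 8 lower, against 1927 and 1973. After median centring they were 17 higher and 3 lower, against 1535 and 801. The calls in E2+3-MC minus 3-MC were 12 higher and 4 lower without vehicle rat 1, against 1739 and 437 of all tested genes. That rat enters this comparison only through the shared estimate of spread and the limit on dim genes. After quantile normalization the calls were 14 higher and 6 lower, against 1385 and 1266. The median difference of all tested genes was -0.11 in E2 minus vehicle on the deposited scale and 0.05 after median centring, and in E2+3-MC minus 3-MC it was 0.08 as deposited and -0.03 after quantile normalization.

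**Figure D3:**
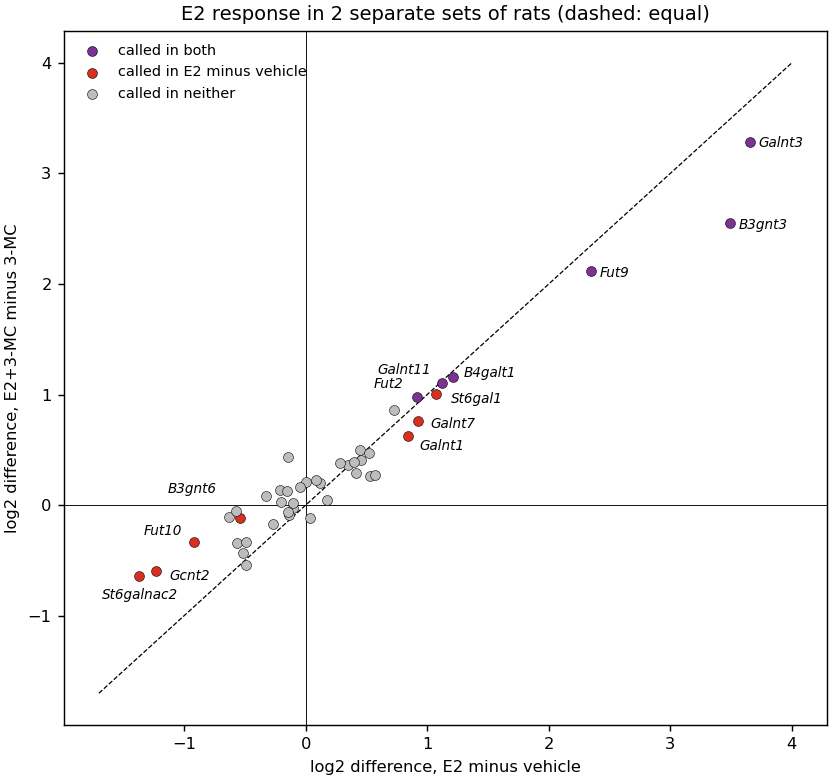
E2 response of the 45 glycosyltransferases tested, in rats without 3-MC (horizontal axis, log2 difference, E2 minus vehicle) and in rats with 3-MC (vertical axis, log2 difference, E2+3-MC minus 3-MC). Purple points were called in both, red points in E2 minus vehicle alone and grey points in neither; Galnt3, B3gnt3 and Fut9 lie far to the upper right, and St6galnac2 and Gcnt2 lie above the dashed line of equality at the lower left.

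E2+3-MC rats were also set against vehicle rats, the comparison of combined treatment with none. There 5 of 45 were called higher, against 6.06% of all tested genes, and 1 was called lower, against 1.78%. The genes called higher were Galnt3, B3gnt3, Fut9, Galnt11 and Fut2, with differences of 3.26, 2.68, 2.51, 1.33 and 0.81, and the gene called lower was St6galnac2 at -0.85, or -0.51 without vehicle rat 1. Here too, Galnt3, B3gnt3 and Fut2 entered the test through the rats given E2. The St6galnac2 call was lost in 10 of 22 alternative settings and the Fut2 call in 9 of 21. Leaving out vehicle rat 1 gave 16 higher and 1 lower, against 2483 and 216 of all 10154 tested genes. Quantile normalization gave 12 higher and 5 lower, against 1297 and 1352 of all tested genes. This comparison shares its E2+3-MC rats or its vehicle rats with both comparisons above.

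The effect of 3-MC was asked in 4 ways, and in the fit to all 4 groups none gave a call among the glycosyltransferases. In 3-MC minus vehicle, 0 of 45 were called, against 0% of all tested genes, and an unadjusted p under 0.05 was found for 0 of 45 and for 82 of all 10154 tested genes. After quantile normalization 3 of 45 and 484 of all tested genes had one. The differences ran from -0.36 (Galnt2) to 0.39 (Fut9), and all 45 of the 95% intervals lay within 1 log2 unit of 0. In E2+3-MC minus E2, 0 were called, against 0% of all tested genes, and 5 had an unadjusted p under 0.05, as did 937 of all tested genes. After quantile normalization 13 of 45 and 1317 of all tested genes had one. Without vehicle rat 1, 109 of all tested genes were called higher and 8 lower, and still 0 of the 45. A fit to the E2+3-MC and E2 rats alone called 1 of 45, lower, and 124 of all tested genes higher and 20 lower. In the fit to all 4 groups the differences in E2+3-MC minus E2 ran from -0.81 (B3gnt3) to 0.69 (Gcnt2). There, 42 of the 45 intervals lay within 1 log2 unit of 0, and the smallest adjusted p in limma was 0.49.

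The 3-MC main effect, the mean of those comparisons, called 0 of 45, against 0% of all tested genes, with differences of -0.34 to 0.37. An unadjusted p under 0.05 was found for 1 of 45 and 616 of all tested genes, and for 11 of 45 and 1308 of all tested genes after quantile normalization. After median centring it was found for 9 of 45 and 1011 of all tested genes, and without vehicle rat 1 for 11 of 45 and 1930. The interaction, which asks whether the E2 response differed with 3-MC, called 0 of 45, against 0% of all tested genes, with 2 of 45 and 298 of all tested genes at an unadjusted p under 0.05. Its extremes were B3gnt3 at -0.94, with a 95% interval of -1.71 to -0.17, and St6galnac2 at 0.74, both with an adjusted p of 0.98. Intervals of 38 of the 45 lay within 1 log2 unit of 0. For B3gnt3, the E2 response was 2.55 in the rats with 3-MC and 3.49 in the rats without it, and its 3 E2+3-MC rats lay below the 3 E2 rats.

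Across the 64, the 3 E2+3-MC rats lay above the 3 E2 rats in 13 genes and below them in 1, where all genes gave 20.9% above and 0.986% below. After quantile normalization the counts were 6 above and 12 below, where all genes gave 8.37% and 11.1%, so the direction of this comparison turned with the scale between arrays. The median difference of all tested genes in E2+3-MC minus E2 was 0.15 as deposited and -0.01 after quantile normalization.

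Genes that work around these enzymes were followed in 6 lists. Of 11 mucins and other carriers of O-linked chains tested, 5 rose and 2 fell with E2. Muc20, a membrane mucin, rose by 1.92 ± 0.19, the sialomucin Cd34 by 0.89 ± 0.19 and the sialomucin Cd164 by 0.73 ± 0.17. Muc1, a membrane mucin of uterine epithelium, rose by 0.54 ± 0.17. The endothelial sialomucin Emcn fell by 0.75 (SE 0.13).

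Enzymes and carriers that supply the sugar donors held 10 that rose and 1 that fell of 24 tested. Of the genes that make and carry activated sialic acid, Gne rose by 0.81 ± 0.18, Nans by 1.33 ± 0.20 and Cmas by 0.97 ± 0.18. The phosphatase Nanp and the carrier Slc35a1 of the same path were not called, with differences of 0.07 and 0.46 and adjusted p values of 0.78 and 0.072. The mannose phosphate enzyme Pmm2 rose by 0.73 ± 0.17, and the galactose enzyme Galt fell by 0.63 (SE 0.13). Nans and Cmas were called in both sets of rats, with adjusted p values of 0.0081 and 0.029 in the rats with 3-MC and 0.0025 and 0.015 in the rats without it.

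Sulfation genes held 5 that rose and none that fell of 12 tested. Chst4, a sulfotransferase that acts on N-acetylglucosamine of mucin-type chains, rose by 1.93 ± 0.18. Papss1, which makes the sulfate donor, rose by 1.87 ± 0.19, and its relative Papss2 by 0.80 ± 0.18. Chst11, which sulfates chondroitin, rose by 0.76 ± 0.15.

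Of 28 other glycan-building enzymes, 6 rose and 1 fell. C1galt1c1, the chaperone of the enzyme that adds galactose to the Galnt product, rose by 0.68 ± 0.18, B3galnt1 by 1.09 ± 0.18 and Mgat2, which branches N-linked chains, by 0.51 ± 0.16, while Mgat4a, another branching enzyme of N-linked chains, fell by 1.13 (SE 0.15). Of 13 glycan-degrading enzymes, 3 rose, namely the fucosidases Fuca1 at 1.59 ± 0.23 and Fuca2 at 1.30 ± 0.18 and the galactosidase Glb1 at 1.03 ± 0.21. Of 12 lectins, 5 rose, led by the galectin Lgals9 at 2.04 ± 0.20 and the macrophage lectin Siglec1 at 1.86 ± 0.27. No gene of these lists was called in 3-MC minus vehicle or in E2+3-MC minus E2. Median E2 differences were 0.33 for mucins and carriers, 0.32 for sugar donor supply, 0.17 for sulfation, 0.09 for the other building enzymes, 0.30 for breakdown and 0.16 for lectins, against -0.02 for all tested genes. The shares of higher and lower calls over all tested genes, 15% and 10.6%, apply to these lists as well.

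**Figure D4:**
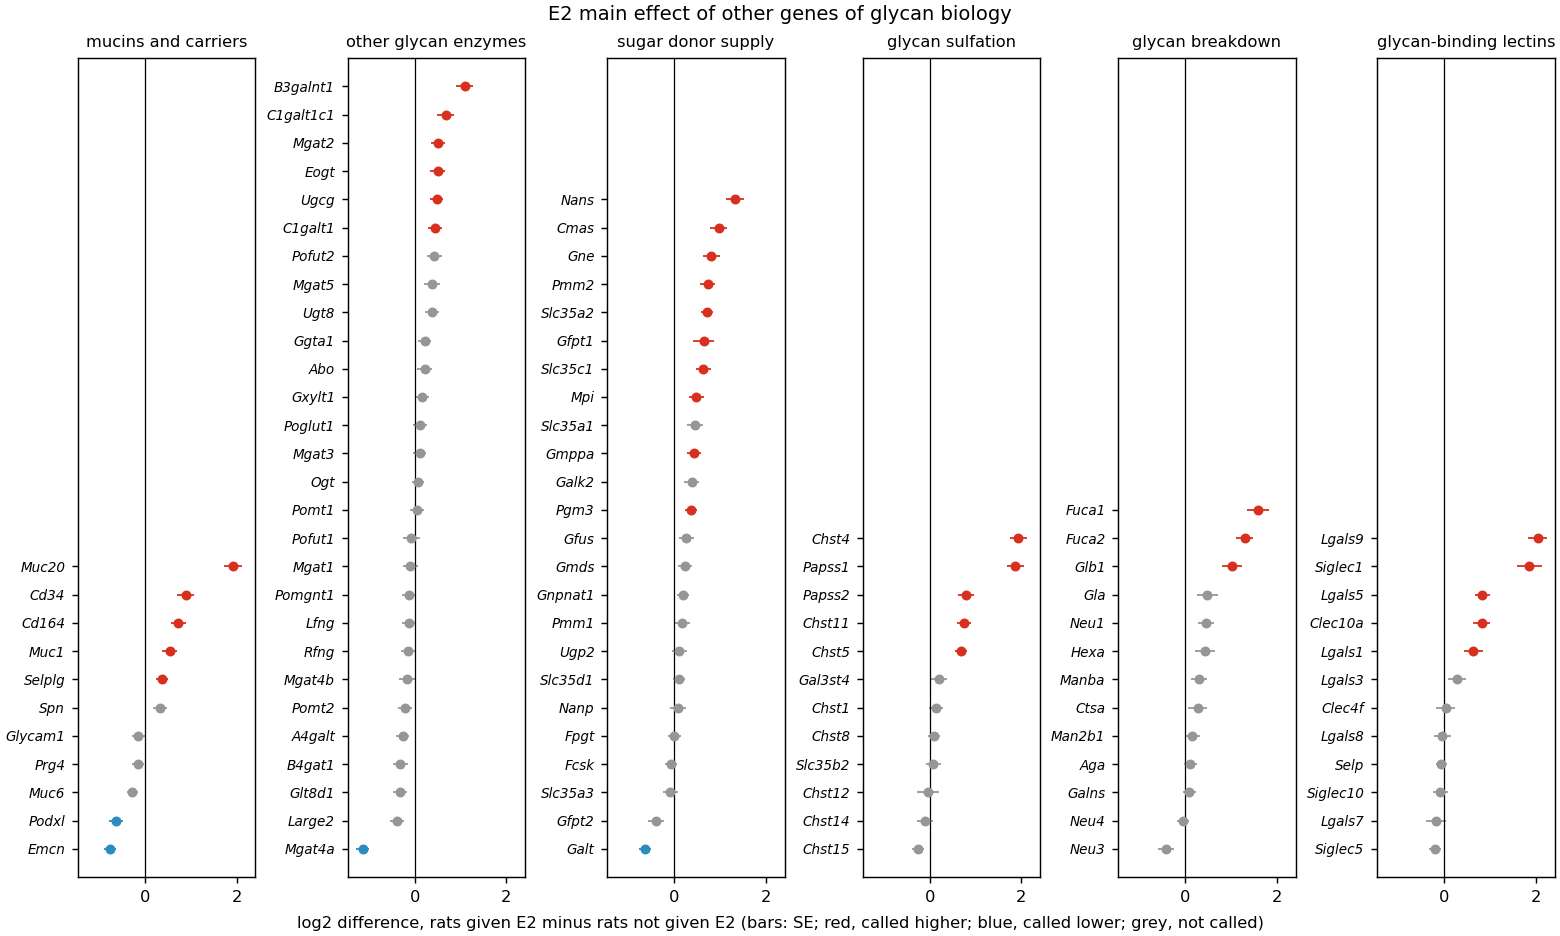
E2 main effect of the tested genes of 6 lists around the glycosyltransferases. Points are log2 differences between the 6 rats given E2 and the 6 not given it, bars are standard errors, red marks genes called higher, blue lower and grey not called; Muc20, Chst4, Papss1, Lgals9 and Siglec1 lie near 2 log2 units, and sugar donor supply holds 10 red points of 24.

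Markers of cell types moved with E2 as well. Over all tested genes, 15% were called higher and 10.6% lower. Of 12 epithelial markers tested, 9 were called higher, with Krt8 at 2.60 ± 0.27, Elf3 at 3.40 ± 0.20 and Epcam at 0.78 ± 0.17, and Ovol1 was dim. The tested epithelial markers not called were Cldn3, Cldn4 and Grhl2, with differences of -0.41, -0.18 and 0.28. The summed intensity of 13 epithelial markers was 9046 to 18650 in the E2+3-MC rats and 17310 to 21070 in the E2 rats, against 3964 to 5343 in the 3-MC rats and 4350 to 9033 in the vehicle rats, so groups with and without E2 were separated by a small margin. Of 8 leukocyte markers tested, 7 were called higher, and their summed intensity over 9 genes was 2132 to 2835 in the E2+3-MC rats and 2007 to 3246 in the E2 rats, against 706.6 to 1269 in the 3-MC rats and 653.6 to 1623 in the vehicle rats. Of 6 endothelial markers, Emcn among them, 5 were called lower. Of 8 myometrial markers 3 were called higher, of 9 stromal markers 1 was called higher and 1 lower, and of 2 glandular markers 1 was called lower. Of 4 adipocyte markers 1 was called higher and 1 lower, and both blood markers were called lower. In whole uterus, fewer cells of a type and less RNA per cell cannot be told apart, and the part that these shifts had in the glycosyltransferase results was not tested.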

How the data were processed

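Total RNA from the uterus of 12 rats was hybridised to Affymetrix arrays, and the deposited values are linear intensities per probe set. The authors made these intensities with Affymetrix Expression Console and PLIER, per the submitters' processing notes. The sources used here give no genome build, annotation version or scaling between arrays, and the number of arrays and rats limits the precision. Groups were taken from the treatment labels, with 3 rats in each of 4 groups.

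Of 29214 probe sets, 15310 had a single gene symbol in the platform annotation, 323 had several and 13581 had none, and 15303 of the 15310 matched a RefSeq gene of GRCr8. A gene read by several probe sets (527 genes) was represented by its brightest on average, which left 14506 genes. Intensities were changed to log2(intensity + 16), and the dimmest 30% of genes (mean of 6.44 or less) were left out. The 4 group means were fitted over the 12 arrays with limma 3.58.1 in R 4.3.3 (lmFit and eBayes, 8 residual degrees of freedom and a prior of 8.92). All 8 comparisons were two-sided with Benjamini-Hochberg adjustment over 10154 genes. The procedure was tested on simulated data.

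The members and gene lists were chosen with earlier results of these data known. Values in every rat were given for members called in the E2 main effect with a size of at least 1 log2 unit and for Fut2. Galnt3, Fut2, Fut1, St6galnac1, Gcnt3, B4galt1 and St6gal1 were named whatever their result, and up to 4 called genes of each other list were named by size. Gcnt2 and Galntl5 in every rat, the other members given by range, Muc1, Galt, Nanp, Slc35a1 and the marker genes given as examples were chosen after their values were seen. Upstream sequences come from RefSeq, build GRCr8.

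Alternatives were quantile normalization, median centring, offsets of 1 and 64, no limit or a limit of 50% on dim genes, a trended robust prior, the mean of all probe sets of a gene, a fit to the groups compared alone, the replicate number as a block, and each rat left out.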

Additional observations from a re-analysis of the deposited data

How the results depend on the processing

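The counts of glycosyltransferases called depended on the scale between arrays and on single rats. Counts over all tested genes moved as well. After quantile normalization they went from 1842 to 3900 in E2 minus vehicle and from 834 to 2651 in E2+3-MC minus 3-MC. In E2 minus vehicle, where 13 glycosyltransferases were called, quantile normalization gave 25 and median centring 20. Leaving out single rats gave 8 (without E2 rat 3) to 24 (without vehicle rat 1). In E2+3-MC minus 3-MC, where 6 were called, quantile normalization gave 20, and leaving out single rats gave 4 to 16 (without vehicle rat 1). A fit to those groups alone gave 15, against 1773 higher and 497 lower of all tested genes. For E2+3-MC minus vehicle, where 6 were called, quantile normalization gave 17, and leaving out single rats gave 4 to 17 (without vehicle rat 1). In E2+3-MC minus E2, where 0 were called, a fit to those groups alone gave 1, called lower. That fit called 124 of all tested genes higher and 20 lower. In the E2 main effect, 22 of 45 were called, against 1522 higher and 1078 lower of all 10154 tested genes. Leaving out the dimmest 50% of genes gave 11 of 25 members tested, against 1203 higher and 614 lower of all 7253. Leaving out single rats gave 15 to 28. The 15 came without E2+3-MC rat 3, against 1142 higher and 784 lower of all tested genes. The 28 came without vehicle rat 1, against 3071 and 1437. In the replicate block fit the count was 21 in E2 minus vehicle, against 1112 higher and 1433 lower of all tested genes. It was 10 in E2+3-MC minus 3-MC, against 927 and 213. Other counts stayed within 1.5 times. The labels tie no number to a shared animal or batch. Deviations of same-numbered rats correlated at -0.27 to 0.24, over 0.1 in 8 of 18 pairs. The 9 pairs without a vehicle rat were all above 0. The 3 pairs of 3-MC with E2 were all over 0.1. Those groups are not compared directly, but they stand on opposite sides of both main effects. No pair of groups compared directly had all its correlations over 0.1. Of 12 rats, 2 correlated best with a rat of their own number, so the numbers were not taken as pairs. With the replicate block, the E2 main effect called 17 higher and 8 lower, against 1796 and 1396 of all tested genes. The cause of these changes was not tested.

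Of 996 values of 47 single-gene results under the alternatives, 871 kept direction and side of the threshold, 125 kept direction and lost the call, and 0 turned sign. The 47 were results called in the main fit, so a call could be kept or lost but not gained. Of the E2 main effect calls, 10 of 15 higher and 5 of 7 lower were kept in every alternative that tested them, while B3gnt2 lost it in 14 of 21, B3gntl1 in 12 of 20, B4galt4 in 10 of 21, Galnt4 and St3gal4 in 10 of 20, St3gal6 in 8 of 21 and B4galt3 in 2 of 21. In E2 minus vehicle, B3gnt6 lost the call in 13 of 21, Galnt1 and Galnt7 in 5 of 22, St6gal1 in 4 of 22, Fut10 in 3 of 22 and Gcnt2 in 2 of 21. In E2+3-MC minus 3-MC, B4galt1 lost it in 5 of 22 and Fut2 in 3 of 21. No counts of reads exist for arrays, so depth cannot be given, and the 19 dim genes are limited by their signal.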
